A study of Mus musculus with 4 samples.

Results

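Expression of 5 integrin chain genes (Itgae, Itga1, Itga4, Itgb1 and Itgb7), of the tissue retention gene Cd69 and of the selectin ligand gene Selplg was measured in single cells from mouse tumours. The set was given as a list of symbols, and all 7 matched 1 row each among the 32285 genes of both RNA matrices. Wild-type B6 mice of the Thy1.2 type carried a chimeric tumour and received Thy1.1 Pmel-1 T cells together with adjuvant. Pmel-1 cells are CD8 T cells with a transgenic receptor for the melanocyte antigen gp100, and they were Tc9 cells (interleukin-9 type) in one group and Tc1 cells (interferon-gamma type) in the other. Tumours of 3 mice per group were pooled on day 30 after inoculation and digested with enzymes, and the sorted CD4 T cells gave in each group 1 library of RNA and 1 of T cell receptors (TCR), named Tc9 and Tc1 below. Each group is therefore 1 pool and 1 library of each kind, and animal, pool and library differences cannot be told apart from the treatment. Both groups received transferred cells and adjuvant, so no untreated level was measured here.

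Integrins are cell surface heterodimers of an alpha and a beta chain that hold T cells to other cells and to matrix. The αE chain (Itgae, CD103) pairs with β7 (Itgb7) and binds E-cadherin on epithelium, and the α4 chain (Itga4) pairs with β7 to bind MAdCAM-1 or with β1 (Itgb1) to bind VCAM-1 and fibronectin. The α1 chain (Itga1, CD49a) pairs with β1 and binds collagen. CD69 is an early activation lectin that removes the egress receptor S1PR1 from the cell surface, and PSGL-1 (Selplg) is a ligand of the selectins on vessels and platelets. Together with αE, α1 and CD69 are commonly used to mark T cells that stay in tissues.

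The coordinates of the 7 genes are those of RefSeq on GRCm38.p6. Itgae (ENSMUSG00000005947) lies at chr11:73090505-73147449, Itga1 (ENSMUSG00000042284) at chr13:114958079-115101964 and Itga4 (ENSMUSG00000027009) at chr2:79255426-79333114. Itgb1 (ENSMUSG00000025809) lies at chr8:128685654-128733579, Itgb7 (ENSMUSG00000001281) at chr15:102215994-102233405, Cd69 (ENSMUSG00000030156) at chr6:129267324-129275375 and Selplg (ENSMUSG00000048163) at chr5:113817798-113832528.

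One of the populations described was defined by sequence. A productive TCR beta chain with TRBV14 and TRBJ1-6 (chromosome 6) was found in both libraries, on 487 barcodes in Tc9 and 59 in Tc1, and its cells are called shared-receptor cells. Its CDR3 is shown because it defines them.
Shared TRB CDR3: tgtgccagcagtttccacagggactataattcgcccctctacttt
Upstream sequence is shown for the α4 and β1 genes, the members on the plus strand for which a promoter entry was found. Their chains form 1 receptor, and both genes were higher in other CD4 cells of Tc9. The sequences are the 250 bases before the gene start on the plus strand, from RefSeq (GRCm38.p6), at chr2:79255176-79255425 for Itga4 and chr8:128685404-128685653 for Itgb1. Capitals mark GGGCGG (SP/KLF motif) and, in Itga4, ACCACA (the reverse strand of the RUNX motif TGTGGT).
Itga4: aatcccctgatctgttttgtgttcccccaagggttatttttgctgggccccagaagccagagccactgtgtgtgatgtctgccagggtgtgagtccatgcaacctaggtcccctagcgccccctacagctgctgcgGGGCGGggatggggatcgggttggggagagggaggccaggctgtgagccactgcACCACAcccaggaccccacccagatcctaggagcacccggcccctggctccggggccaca
Itgb1: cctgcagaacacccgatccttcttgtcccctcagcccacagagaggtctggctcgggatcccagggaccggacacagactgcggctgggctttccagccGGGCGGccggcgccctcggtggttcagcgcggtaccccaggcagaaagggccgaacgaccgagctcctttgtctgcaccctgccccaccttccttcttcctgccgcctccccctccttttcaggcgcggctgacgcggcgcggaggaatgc
Of 32851 such windows searched on both strands, 32.7% held GGGCGG, 14.05% held TGTGGT, 6.75% held the AP-1 motif TGANTCA and 2.88% held the ETS motif CCGGAAGT. Neither AP-1 nor ETS letters were in these 2 windows, and the Itga1 and Itgb7 windows held none of the 4 motifs. The Itgb7 window (chr15:102231936-102232185, minus strand) lies inside the gene span given above, so it is not upstream of that span. A promoter entry was found for 4 of the 7 genes, and not for Itgae, Cd69 and Selplg.

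Filters of at least 500 genes and at most 10% mitochondrial unique molecular identifiers (UMIs) left 8204 of 8449 barcodes in Tc9 and 11933 of 13406 in Tc1, with a median of 5256.5 and 5404 UMIs. The libraries had 127 kept cell barcodes in common, 1.55% of those in Tc9 and 1.06% of those in Tc1. Classes were rebuilt by clustering without the 7 genes. Despite the CD4 sort, the kept cells included CD8, NK-like, dendritic-like and, mainly in Tc1, macrophage-like and melanoma-like clusters. Levels are given in CPM, the UMIs of a gene scaled to the same total in each population, for Foxp3 CD4 cells (1149 cells in Tc9 and 276 in Tc1), other CD4 cells (5936 and 2068), CD8 cells (212 and 2273), shared-receptor cells (480 and 47), NK-like cells (119 and 247) and dendritic-like cells (80 and 568). Defining markers were high in 4 of these populations: the summed T cell markers were at 2122 and 2488 CPM in other CD4 cells, the 5 regulatory T cell (Treg) markers at 4218 and 3572 CPM in Foxp3 cells, the NK markers at 3806 and 2822 CPM in NK-like cells and the dendritic markers at 17441 and 34612 CPM in dendritic-like cells, Tc9 before Tc1 in each pair. The Tc9 CD8 cells went against their name: their 2 CD8 markers summed to 459 CPM and their Treg markers to 1931 CPM, against 1185 and 357 CPM in Tc1 CD8 cells. In other CD4 cells the macrophage markers summed to 23.8 CPM in Tc9 and 532 CPM in Tc1, with none of the 9 at 0 in either library. The red cell and platelet markers summed to 0.81 CPM in Tc9, with 3 of the 5 genes at 0, and to 7247 CPM in Tc1. The estimated free RNA was 1.11% of the UMIs of Tc9 other CD4 cells and 5.48% of those of Tc1, 0.925% and 3.05% in Foxp3 cells, 4.28% and 4.30% in CD8 cells and 1.56% and 1.58% in shared-receptor cells. No test was possible without replicate libraries. Intervals are 95% intervals of counting error only, and a ratio past 1.5-fold (0.58 on the log2 scale) is called higher or lower.

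**Figure D1:**
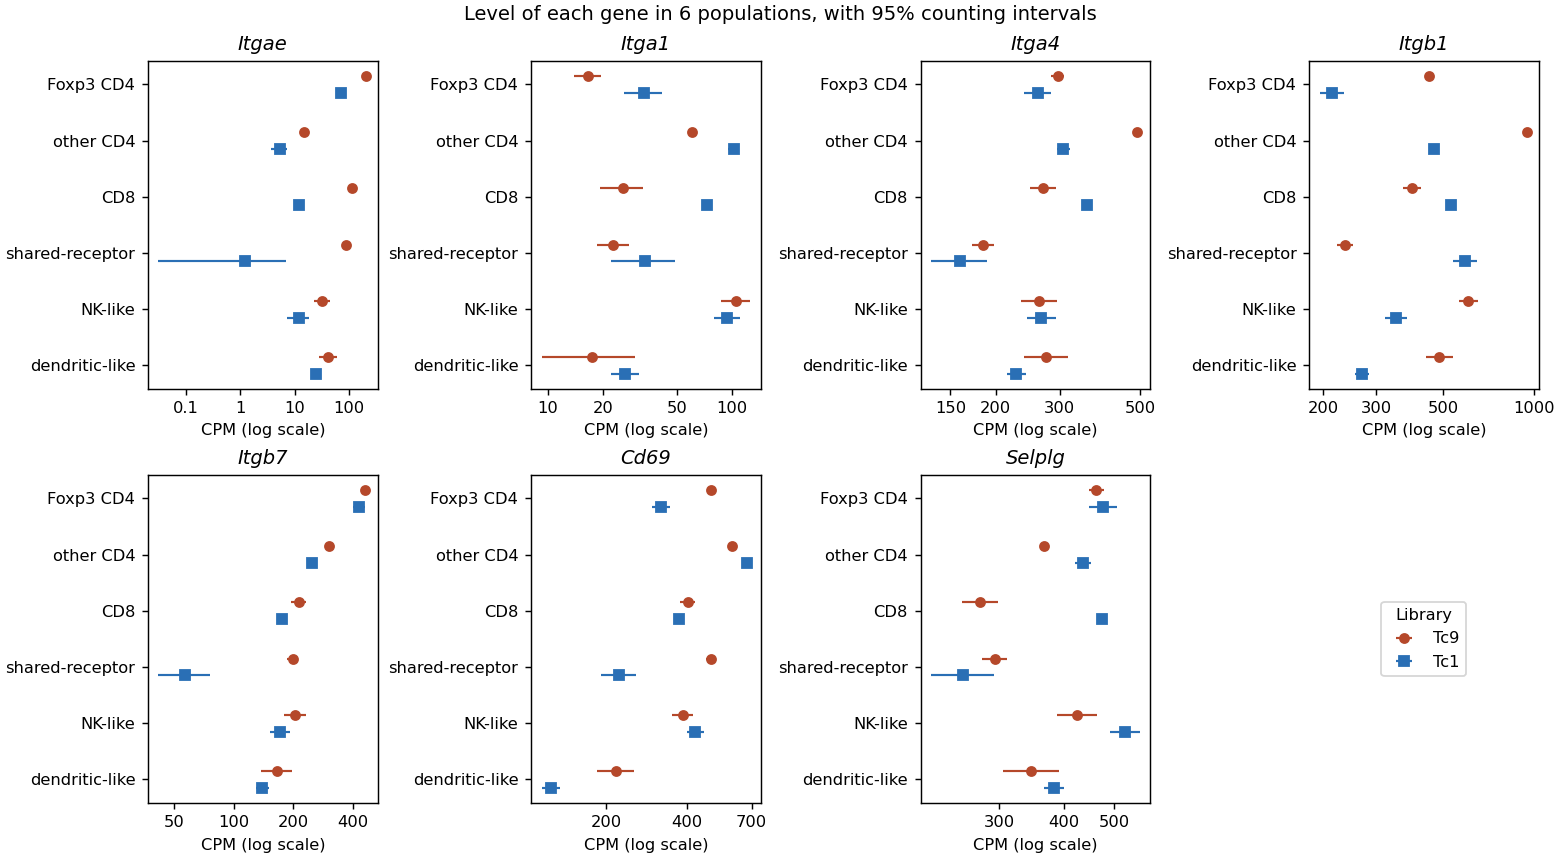
Levels of the 7 genes (x axis, CPM on a log scale) in 6 populations (y axis) of the Tc9 library (circles) and the Tc1 library (squares), with 95% counting intervals as bars. Itgae was at 205 CPM in Tc9 Foxp3 cells and at 14.7 CPM in Tc9 other CD4 cells, and Itgb1 was at 949 CPM in Tc9 other CD4 cells and at 465 CPM in those of Tc1.

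The αE gene was concentrated in Foxp3 cells of both libraries and was higher in Tc9 than in Tc1 in all 6 populations, each taken as a whole. In its lowest alternative setting the log2 ratio of Itgae, Tc9 over Tc1, was within 1.5-fold in 3 of them. It was 0.10 in CD8, 0.45 in NK-like and 0.52 in dendritic-like cells. A subset of dendritic-like cells, described below, had the other order. Foxp3 is the lineage factor of regulatory T cells. Itgae stood at 205 CPM (interval 196 to 215) in Tc9 Foxp3 cells and at 70.1 CPM (59.4 to 82.3) in those of Tc1. In cells thinned to 2000 UMIs, 29.0% of Foxp3 cells had an Itgae UMI in Tc9 and 11.4% in Tc1, while 0 of 287 thinned melanoma-like cells of Tc1 had one. Other CD4 cells were low, with 14.7 CPM in Tc9 and 5.28 CPM in Tc1. The Tc9 order ran from Foxp3 cells through CD8 cells (112 CPM), shared-receptor cells (86.4), dendritic-like cells (41.3) and NK-like cells (31.7) to other CD4 cells, and only the dendritic-like and NK-like levels had intervals that overlapped. In Tc1, dendritic-like cells (24.6 CPM) followed the Foxp3 cells, CD8 cells (11.9) and NK-like cells (11.8) did not differ beyond their intervals, and shared-receptor cells had 1 UMI in all (1.24 CPM, 0.0314 to 6.92). The interval of other CD4 cells (3.74 to 7.25) overlapped those of NK-like and shared-receptor cells.

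The αE level within dendritic-like cells was highest in those with an Xcr1 or Clec9a UMI, the receptors of cross-presenting dendritic cells. These had 85.7 CPM of Itgae in 16 Tc9 cells and 159 CPM in 43 Tc1 cells. Dendritic-like cells with Ccr7, with Cd209a or with none of these genes had 11.5 to 32.5 CPM in Tc9 and 3.70 to 6.68 CPM in Tc1.

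The β7 gene, whose product is the partner of αE, had its highest level in the same cells but varied less. Itgb7 was at 456 CPM (442 to 471) in Tc9 Foxp3 cells and at 429 CPM (401 to 457) in those of Tc1, against 301 and 249.1 CPM in other CD4 cells. CD8, NK-like and shared-receptor cells of Tc9 lay together at 213, 205 and 198 CPM, and dendritic-like cells followed at 165 CPM, with overlapping intervals among these 4. In Tc1, CD8 and NK-like cells were at 174 and 171 CPM, dendritic-like cells at 140 CPM and shared-receptor cells lowest at 57.1 CPM (41.8 to 76.2).

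The α1 gene was highest in NK-like and other CD4 cells and lowest in Foxp3 and dendritic-like cells. Itga1 stood at 105 CPM (87.6 to 126) in NK-like, 60.7 CPM in other CD4, 25.4 CPM in CD8 and 16.5 CPM (13.9 to 19.5) in Foxp3 cells of Tc9. Shared-receptor (22.6 CPM) and dendritic-like cells (17.3 CPM) lay between the last 2, and the intervals of these 4 populations overlapped. In Tc1 the levels were 102 CPM (94.6 to 109) in other CD4 and 94.1 CPM (80.1 to 110) in NK-like cells, which overlapped, then 73.5 CPM in CD8 cells. Shared-receptor, Foxp3 and dendritic-like cells of Tc1 had 33.5, 33.2 and 26.2 CPM, with overlapping intervals.

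The α4 and β1 genes, whose products form the VCAM-1 and fibronectin receptor, were both highest in other CD4 cells of Tc9. Itga4 was at 491 CPM (484 to 499) there, against 307 CPM in other CD4 cells of Tc1, and Itgb1 was at 949 CPM (938 to 959), against 465 CPM. The other Tc9 populations had 263 to 296 CPM of Itga4, apart from shared-receptor cells at 185 CPM, and the 4 populations in that range had overlapping intervals. In Tc1, Itga4 was highest in CD8 cells (358 CPM), and NK-like and Foxp3 cells (267 and 261 CPM) overlapped, as did Foxp3 and dendritic-like cells (228 CPM). Itgb1 in Tc9 ran from other CD4 through NK-like (607 CPM), dendritic-like (486 CPM) and Foxp3 cells (450 CPM) to CD8 (395 CPM) and shared-receptor cells (237 CPM), where dendritic-like and Foxp3 cells overlapped. In Tc1 the shared-receptor cells had the highest level of Itgb1, at 593 CPM (541 to 649), which overlapped that of CD8 cells at 533 CPM, and Foxp3 cells the lowest, at 214 CPM. Melanoma-like cells of Tc1 had 312 CPM of Itgb1. With free RNA subtracted, the log2 ratio of Itgb1, Tc9 over Tc1, was 1.08 in Foxp3 and 0.998 in other CD4 cells, close to the 1.07 and 1.03 without subtraction.

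Cd69 was highest in other CD4 cells and lowest in dendritic-like cells of both libraries. It stood at 591 CPM in other CD4 cells, 493 CPM in Foxp3 cells, 492 CPM in shared-receptor cells and 217 CPM in dendritic-like cells of Tc9, where the Foxp3 and shared-receptor intervals overlapped. In Tc1 the same populations had 673, 321, 222 and 124 CPM. CD8 and NK-like cells were at 404 and 386 CPM in Tc9 and overlapped, and at 373 and 431 CPM in Tc1. Selplg was at 462 CPM in Foxp3, 424 CPM in NK-like, 367 CPM in other CD4 and 276 CPM in CD8 cells of Tc9, where the first 2 overlapped. In Tc1 it was at 524 CPM in NK-like, 476 CPM in Foxp3, 472 CPM in CD8 and 436 CPM in other CD4 cells, each overlapping Foxp3 cells. Shared-receptor cells had 294 CPM of Selplg in Tc9 (overlapping CD8 cells) and 256 CPM in Tc1, and dendritic-like cells had 346 and 383 CPM.

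**Figure D2:**
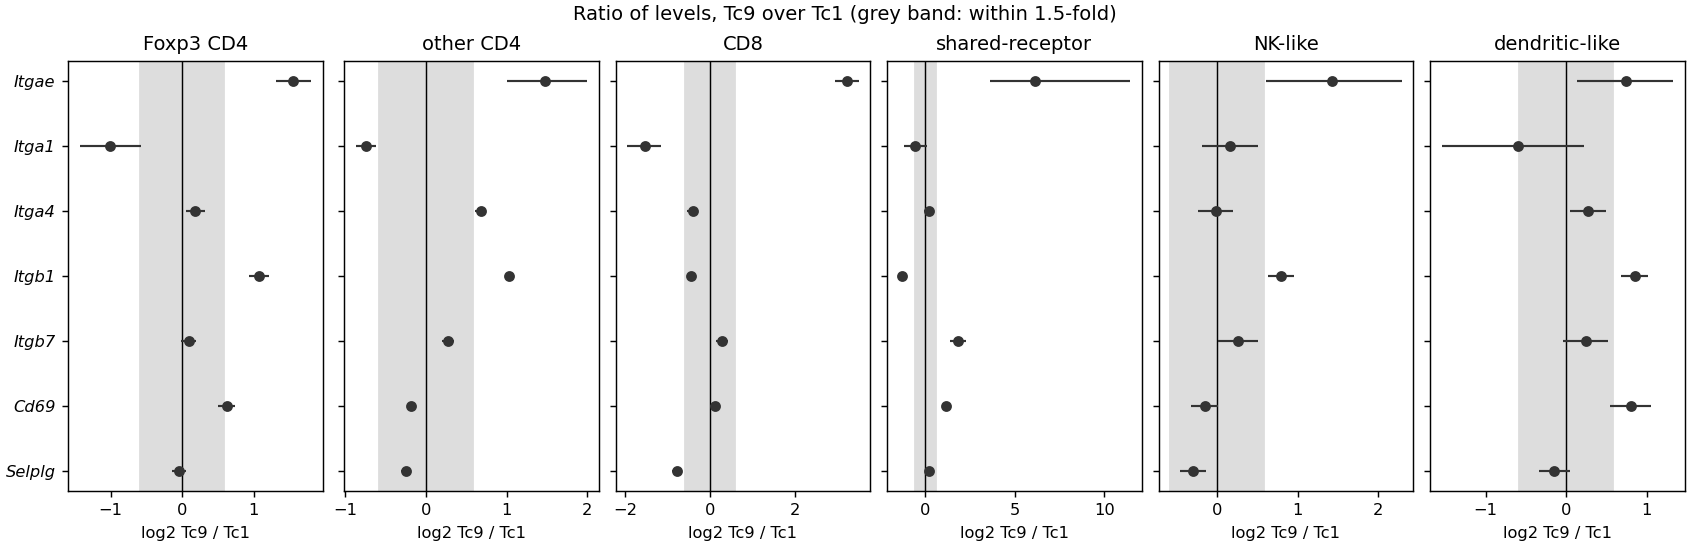
Log2 ratio of the level in Tc9 over that in Tc1 (x axis) for the 7 genes (y axis) in 6 populations, with 95% counting intervals as bars, on x axes that differ between panels. The grey band holds ratios within 1.5-fold, and Itgb1 lay to the right of it in Foxp3, other CD4, NK-like and dendritic-like cells and to the left of it in shared-receptor cells.

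In Foxp3 cells, Tc9 over Tc1, the αE and β1 genes were higher and the α1 gene lower. The log2 ratios were 1.55 (1.31 to 1.80) for Itgae, 1.07 (0.93 to 1.22) for Itgb1 and -1.01 (-1.43 to -0.57) for Itga1. Cd69 was just past the threshold at 0.62, and Itga4 (0.18), Itgb7 (0.09) and Selplg (-0.05) were not past it. Thus 3 of 7 were higher and 1 lower, where 15.8% of the 8444 genes with at least 10 CPM were higher and 24.2% lower, or 40% in either direction. The median of the 7 was 0.18 and that of all genes -0.08. Cd69 missed the threshold in 6 of 14 alternatives (0.04 to 1.03), and Itga1 in 4 of 14 (-1.64 to -0.30).

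In other CD4 cells the α4, β1 and αE genes were higher in Tc9 and α1 again lower. The log2 ratios were 0.68 (0.61 to 0.74) for Itga4, 1.03 (0.98 to 1.08) for Itgb1, 1.48 for Itgae and -0.75 (-0.87 to -0.62) for Itga1, while Itgb7 (0.27), Cd69 (-0.19) and Selplg (-0.25) were within 1.5-fold. Of all 8071 genes 5.32% were higher and 16.5% lower, or 21.8% in either direction. Itga4 was at 0.52 without naive-like clusters, Itga1 at -0.48 with TMM factors (trimmed-mean scaling of the libraries) and at -0.56 with a gate on single UMIs in place of clusters, all short of the threshold. Itgae was at 0.66 without barcodes that held a macrophage or haemoglobin UMI, a setting that left out 268 of 5936 cells in Tc9 and 1487 of 2068 in Tc1, and median depth was 4972 UMIs in Tc9 and 3071.5 UMIs in Tc1.

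Other CD4 cells came from different clusters in each library, so levels were also read within clusters. Clusters 0, 2 and 4 held 1880, 1349 and 2143 CD4 cells of Tc9 and 83, 47 and 169 of Tc1, while cluster 3 held 60 of Tc9 and 1204 of Tc1, and the Treg-like cluster 10 held 1292 and 282. Itgb1 was higher in Tc9 in each of the 5: 762 against 285 CPM in cluster 0, 894 against 575 CPM in cluster 2, 1134 against 535 CPM in cluster 3, 1096 against 743 CPM in cluster 4, and 453 against 197 CPM in cluster 10. Several of these sets were small, and the part of cluster make-up in the Itgb1 ratio of other CD4 cells was not tested. For Itga1 the order turned with the cluster: 53.1 CPM in Tc9 against 50.01 CPM in Tc1 in cluster 0, 80.7 against 68.0 CPM in cluster 2 and 55.1 against 30.8 CPM in cluster 4, but 109 against 150 CPM in cluster 3 and 15.3 against 20.5 CPM in cluster 10. Only the cluster 4 intervals did not overlap. Cluster 3, which had the highest Itga1 level and held most Tc1 CD4 cells, was led by Hbb-bs, a haemoglobin gene. A Hbb-bs UMI was found in 29.0% of its Tc1 cells, and in 18.3% to 28.5% of the Tc1 cells of the other 9 clusters listed, and its part in the Itga1 level was not tested.

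Naive-like CD4 cells (19 in Tc9, 409 in Tc1) had little of either collagen receptor chain. Itga1 was at 0 UMIs in Tc9 and at 1.36 CPM in Tc1, and Itgb1 at 47.8 and 46.9 CPM. Other CD4 cells with a UMI of Il4, Il5 or Il13, the type 2 cytokines, had less Itgb1 than those without in Tc9, at 682 against 1025 CPM (log2 ratio -0.59), and 423 against 472 CPM in Tc1 (-0.16). Of all genes, 3.68% were higher and 3.89% lower in the cytokine-positive cells of Tc9 (7.57% in either direction), and 7.79% and 9.38% in those of Tc1 (17.2%). Itgae, the other member past the threshold in Tc9, was at 10.4 against 16.0 CPM (-0.62), and at 2.98 CPM (3 UMIs) against 5.66 CPM in Tc1.

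The Tc9 CD8 cells carried more αE and less α1 and PSGL-1 transcript than those of Tc1. The log2 ratios were 3.23 (2.95 to 3.51) for Itgae, -1.53 (-1.94 to -1.15) for Itga1 and -0.78 for Selplg, and Itga4 (-0.40), Itgb1 (-0.43), Itgb7 (0.29) and Cd69 (0.11) were within 1.5-fold. Of all genes 17.4% were higher and 22.6% lower, or 40% in either direction. Set against other CD4 cells of the same library, CD8 cells had a higher Itgae in Tc9 (2.92) and in Tc1 (1.17). Itgb1 (-1.27), Itga1 (-1.26) and Itga4 (-0.86) were lower in Tc9, and Cd69 (-0.85) was lower in Tc1. Of all genes 14.1% were higher and 6.54% lower in Tc9 (20.6% in either direction), and 11.6% and 10.4% in Tc1 (22%). The cells compared differed in kind. A Foxp3 UMI was found in 38.7% of Tc9 and 1.32% of Tc1 CD8 cells (123 and 5.34 CPM), and a Cd4 UMI in 46.7% and 11.8%. Of the 212 Tc9 cells 190 had no beta chain recovered and 22 had one other than the shared chain, and cluster 1.0 among them had Treg markers. No CD8 cluster held 20 cells of both libraries: clusters 1.0, 1.4, 1.5 and 1.6 held 55, 22, 36 and 22 cells of Tc9, and cluster 9 held 12 of Tc9 and 1187 of Tc1. Itgae was at 118 CPM in the Tc9 CD8 cells without a beta chain, against 10.1 CPM in such cells of Tc1, but at 13.5 CPM in the 22 with another chain, against 12.6 CPM in 1620 cells of Tc1 (log2 ratio 0.10). In those 22 cells Itga4 and Itgb1 were higher than in Tc1 (744 against 351 CPM, and 1088 against 523 CPM). Without cluster 1.0 the log2 ratio of Itgae was 2.84, and the part of Foxp3-positive cells and of missing chains in the CD8 result was not tested.

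In shared-receptor cells αE, β7 and Cd69 were higher in Tc9 and β1 was lower. Itgae had 390 UMIs in 480 Tc9 cells and 1 UMI in 47 Tc1 cells, a ratio of 69.6 (12.4 to 2757). The log2 ratios were 1.80 (1.37 to 2.26) for Itgb7, 1.15 (0.93 to 1.37) for Cd69 and -1.32 (-1.48 to -1.16) for Itgb1, and Itga1 (-0.57), Itga4 (0.22) and Selplg (0.20) were within 1.5-fold. Treg markers summed to 1511 CPM in Tc9 and 703 CPM in Tc1, with a Foxp3 UMI in 19.6% and 4.26% of cells. Cell cycle markers summed to 140 CPM in Tc9 and 764 CPM in Tc1, and dendritic markers to 152 and 1151 CPM. Median depth was 7744.5 UMIs in Tc9 and 14981 UMIs in Tc1. The part of these differences in the result was not tested. In these small sums 24.7% of genes were higher and 29.3% lower, or 54% in either direction. Of these cells 257 in Tc9 and 44 in Tc1 lay in CD8 clusters and 223 and 3 in CD4 clusters. Within CD8 clusters Itgae was at 82.0 against 1.27 CPM and Itgb1 at 221 against 582 CPM, Tc9 against Tc1. Set against other CD4 cells of the same library, shared-receptor cells of Tc9 had a higher Itgae (log2 ratio 2.55) and lower Itgb1 (-2.00), Itga1 (-1.43), Itga4 (-1.41) and Itgb7 (-0.60), where 11.4% of genes were higher and 7.85% lower, or 19.3% in either direction. Of the 6 members at 10 CPM or more in Tc1, none was higher, Itgb1 was within 1.5-fold (0.35) and 5 were lower (-0.77 for Selplg to -2.13 for Itgb7), and Itgae, with 1 UMI in shared-receptor cells, was not counted, where 25.1% of genes were higher and 31% lower, or 56.1% in either direction. Within Tc9, Itgae was at 94.5 CPM in the shared-receptor cells of CD4 clusters. Itga1 passed the threshold, as lower, in 8 of 12 alternatives (-1.25 to -0.39).

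NK-like and dendritic-like cells, each taken as a whole, showed a higher β1 and αE transcript level in Tc9. In NK-like cells Itgae had a log2 ratio of 1.43 (0.61 to 2.29) and Itgb1 0.80 (0.64 to 0.96), and the other 5 were within 1.5-fold (-0.31 for Selplg to 0.26 for Itgb7), where 14.7% of genes were higher and 31% past the threshold in either direction. Both missed the threshold without barcodes that held macrophage or haemoglobin UMIs, at 0.45 and 0.51. A beta chain was recovered in 24 of the 119 Tc9 cells and 130 of the 247 Tc1 cells, so the class includes barcodes with a T cell receptor, and in the cells without one Itgb1 was at 622 CPM in Tc9 and 406 CPM in Tc1. In dendritic-like cells Itgb1 (0.85, 0.68 to 1.02), Cd69 (0.81, 0.55 to 1.06) and Itgae (0.75, 0.13 to 1.33) were higher and Itga1 lower (-0.60, -1.54 to 0.23), where 25.9% of genes were higher and 16.7% lower, or 42.6% in either direction. Within the dendritic-like cells with Xcr1 or Clec9a, which were 16 of 80 in Tc9 and 43 of 568 in Tc1, the order of Itgae was the other way (85.7 and 159 CPM). Macrophage markers summed to 583 CPM in Tc9 and 2637 CPM in Tc1 dendritic-like cells, a UMI of the T cell gene Cd3e was found in 45% and 30.3% of them, and the part of these in the result was not tested. Itgae missed the threshold with TMM factors (0.53) and at cluster resolution 1.5 (0.52), and Itga1 in 4 of 8 alternatives.

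Foxp3 cells differed from other CD4 cells in the same sense in both libraries. Foxp3 over other CD4 cells, the log2 ratio of Itgae was 3.80 (3.65 to 3.95) in Tc9 and 3.73 (3.21 to 4.29) in Tc1, that of Itgb7 0.60 and 0.78, that of Itgb1 -1.08 and -1.12 and that of Itga1 -1.88 and -1.62. Both chains of the E-cadherin receptor were thus higher and both chains of the collagen receptor lower. Itga4 was lower in Tc9 (-0.73) and within 1.5-fold in Tc1 (-0.24), Cd69 was within it in Tc9 (-0.26) and lower in Tc1 (-1.07), and Selplg was within it in both (0.33 and 0.13). Of all genes 12.2% were higher and 3.9% lower in Tc9 (16.1% in either direction), and 18.4% and 12% in Tc1 (30.4%). The difference of these ratios between libraries was not tested. In Tc1, Itgb7 missed the threshold with the gate on UMIs (0.58) and Cd69 in thinned cells (-0.49). Foxp3 cells with an Areg or Il1rl1 UMI, marks of tissue-repair regulatory cells, had 210 CPM of Itgae in Tc9 and 65.3 CPM in Tc1, and those without had 178 and 76.2 CPM.

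**Figure D3:**
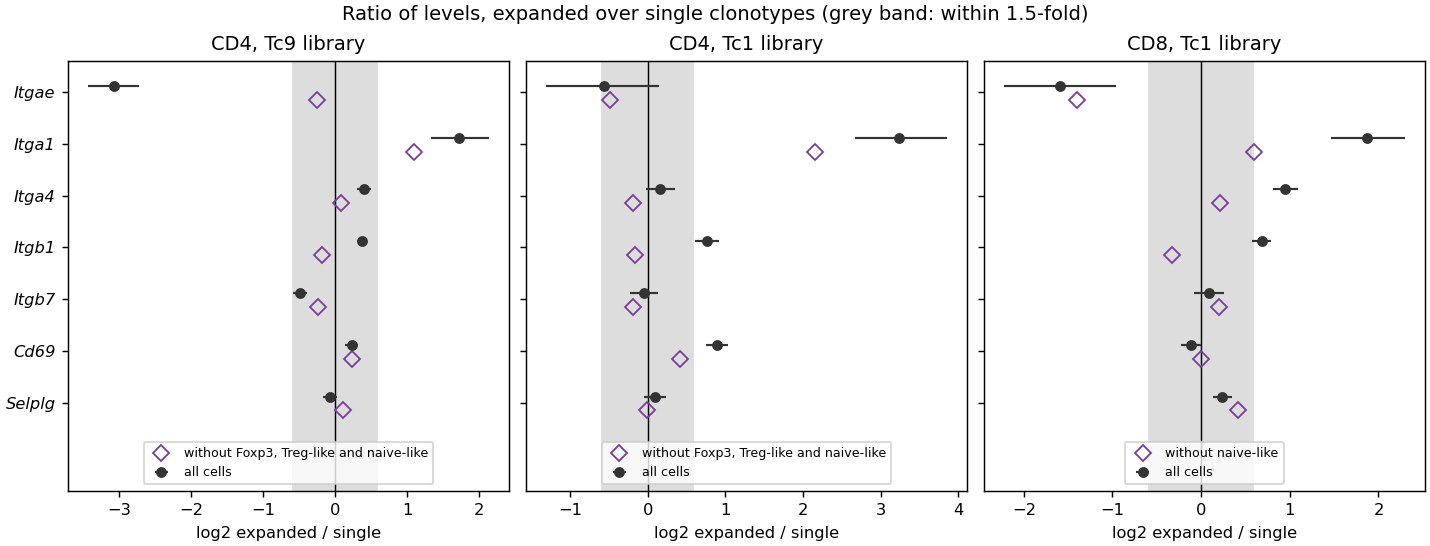
Log2 ratio of the level in expanded over single clonotypes (x axis) for the 7 genes (y axis), for all cells (filled circles, 95% counting intervals) and without Foxp3 cells, Treg-like and naive-like clusters, or in CD8 cells without naive-like clusters (open diamonds). Itga1 lay to the right of the grey 1.5-fold band in each panel with all cells, at 1.73, 3.24 and 1.87.

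Expanded clonotypes carried more α1 transcript than single ones in each of the 3 sets that could be compared. A clonotype was a pair of alpha and beta chain sequences, expanded with at least 3 cells and single with 1. The CD4 class had 985 expanded cells in 106 clonotypes and 503 single cells in Tc9, and 370 cells in 64 clonotypes and 409 single cells in Tc1. The CD8 class had 802 cells in 53 clonotypes and 321 single cells in Tc1, and only 7 cells with a pair in Tc9. Itga1 was at 63.0 CPM in expanded against 19.0 CPM in single CD4 cells of Tc9, at 142 against 15.03 CPM in those of Tc1, and at 85.6 against 23.5 CPM in CD8 cells of Tc1. The log2 ratios were 1.73 (1.34 to 2.14), 3.24 (2.67 to 3.85) and 1.87 (1.47 to 2.29). Of all genes 3.72%, 11.7% and 19.9% were higher in the expanded cells.

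The α1 signal was spread over clonotypes. An Itga1 UMI was found in 65 of the 106 expanded CD4 clonotypes of Tc9, 37 of 64 in Tc1 and 35 of 53 CD8 clonotypes, and the leading clonotype held 14.8%, 19.5% and 33.2% of these UMIs. Without thinning, 21.4% of expanded against 7.36% of single CD4 cells of Tc9 had an Itga1 UMI, 34.1% against 6.11% of those of Tc1, and 32.8% against 10.3% of CD8 cells. Median depth was 5795 UMIs in expanded and 5873 in single CD4 cells of Tc9, 3329.5 and 3719 in those of Tc1, and 5893 and 6150 in CD8 cells. The largest CD4 clonotypes had 90 cells in Tc9 and 57 in Tc1, with 88.6 CPM (66.0 to 117) and 75.5 CPM (41.3 to 127) of Itga1. The next 5 in Tc9 had 44.5 to 97.1 CPM, and the next 5 in Tc1 had 49.8 (2 UMIs) to 372 CPM.

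The expanded and single cells also differed in kind. Foxp3 cells were 3.45% of expanded and 42.7% of single CD4 cells in Tc9, and 7.84% and 21.0% in Tc1. Naive-like cells were 0% of expanded and 43.5% of single CD4 cells in Tc1, and 1.75% and 70.7% of CD8 cells. Without Foxp3 cells and the Treg-like and naive-like clusters Itga1 was still higher in expanded CD4 cells, at 1.09 in Tc9 (945 against 241 cells) and 2.16 in Tc1 (338 against 130 cells). Without naive-like clusters it was at 0.59 in CD8 cells of Tc1 (788 against 94 cells), just past the threshold.

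The αE gene went the other way in CD4 cells of Tc9 and CD8 cells of Tc1. Itgae was at 13.5 CPM in expanded against 114 CPM in single CD4 cells of Tc9 (log2 ratio -3.07, -3.43 to -2.73). In CD4 cells of Tc1 it was at 17.5 against 25.9 CPM, within 1.5-fold (-0.56, -1.31 to 0.15). In CD8 cells of Tc1 it was at 6.64 against 20.04 CPM (-1.59, -2.22 to -0.97). The Tc9 value was -1.91 without Foxp3 cells and -0.26 without Foxp3 cells and the Treg-like and naive-like clusters. The CD4 value in Tc1 passed the threshold, as lower, in 5 of 8 alternatives (-1.19 to -0.24). In CD8 cells of Tc1, where 0.623% of expanded and 1.25% of single cells had a Foxp3 UMI, it stayed between -2.01 and -1.40 in 6 alternatives. Of all genes 9.45%, 8.77% and 8.18% were lower, and in either direction 13.2%, 20.5% and 28.1%. In CD4 cells of Tc1, Itgb1 (0.76) and Cd69 (0.89) were higher in expanded cells, and without the same cells they were at -0.16 and 0.41. In CD8 cells of Tc1, Itga4 (0.95) and Itgb1 (0.68) were higher, and without naive-like clusters they were at 0.21 and -0.32. Itgb7 and Selplg stayed within 1.5-fold in all 3 sets, from -0.49 to 0.24.

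**Figure D4:**
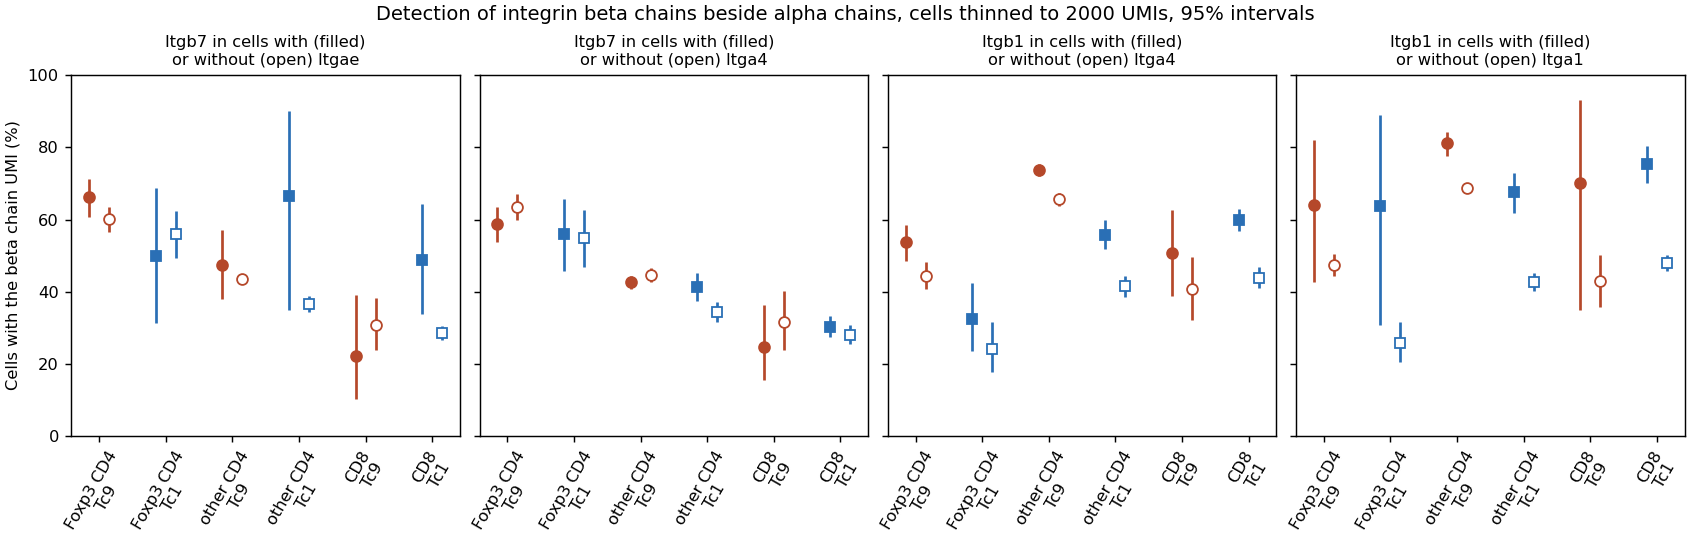
Share of cells (y axis, percent) with an Itgb7 or Itgb1 UMI among cells with (filled) and without (open) a UMI of the alpha chain named above each panel, in 3 T cell populations of the Tc9 (circles) and Tc1 (squares) libraries, cells thinned to 2000 UMIs, with 95% intervals as bars. The filled points lay above the open ones for Itgb1 in every pair drawn, for example at 81.1% and 68.7% beside Itga1 in Tc9 other CD4 cells.

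Detection of β1 went with that of its alpha partners in other CD4 cells of both libraries and in CD8 cells of Tc1. In other CD4 cells of Tc9, 73.8% of cells with an Itga4 UMI and 65.6% of those without had an Itgb1 UMI, and 55.8% and 41.5% did in Tc1. Beside Itga1 the shares were 81.1% and 68.7% in Tc9 and 67.6% and 42.6% in Tc1, and in CD8 cells of Tc1 75.5% and 47.9%. None of these intervals overlapped. The intervals were also apart beside Itga4 in Foxp3 cells of Tc9 (53.6% and 44.4%). Beside Itga1 they were apart in shared-receptor cells of Tc9 (66.7% and 29.3%) and NK-like cells of Tc1 (55.6% and 30.9%). In other small sets they overlapped. Beside Itga4 the shares were 50.7% and 40.6% in CD8 cells of Tc9 and 32.4% and 24.1% in Foxp3 cells of Tc1. In shared-receptor cells of Tc1, 3 of the 5 with Itga1 and 61.9% of those without had Itgb1. For β7 the pairs were mixed. In CD8 cells of Tc1, 48.9% (33.7 to 64.2) of cells with Itgae and 28.5% (26.6 to 30.5) of those without had Itgb7, and in other CD4 cells of Tc1, 41.2% of cells with Itga4 and 34.2% of those without. In Foxp3 cells of Tc9, 66.1% (60.7 to 71.3) of cells with Itgae and 60.03% (56.5 to 63.5) of those without had Itgb7, and beside Itga4 the shares were 58.6% and 63.6%. The share of cells with Itgae among those with Itga1 was 1.23% in other CD4 cells of Tc9, against 2.11% among those without, with overlapping intervals. Few cells of that population showed both residence integrins at this depth. In Foxp3 cells of Tc9, 8 of the 25 cells with Itga1 had Itgae (32%), against 28.9% of those without, again with overlapping intervals.

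Genes of the same pathways were read from lists in other CD4 and Foxp3 cells, Tc9 over Tc1. Of 9 measured TGF-beta signalling genes, a pathway that induces αE in T cells, 5 were higher in other CD4 cells and 8 in Foxp3 cells, and none lower, with median log2 ratios of 0.60 and 1.05, against -0.14 and -0.08 over all genes, of which 5.32% and 15.8% were higher. Ski, a repressor of SMAD proteins, had ratios of 1.52 and 1.92, and the ligand gene Tgfb1 0.83 and 0.94. The count thus holds a repressor as well as a ligand and does not measure signalling. The part of this pathway in the Itgae levels was not tested. None of 10 integrin activation genes passed the threshold in other CD4 cells (Fermt3, kindlin-3, -0.49). In Foxp3 cells 2 of 11 were higher and 3 lower, near the 15.8% and 24.2% of all genes there. Of the other integrin chains, Itgav (αV, which can activate latent TGF-beta) was at 149 against 106 CPM in other CD4 cells (0.49), at 903 against 419 CPM in Foxp3 cells (1.11) and at 498 against 77.9 CPM in CD8 cells (2.68). Itga2, a collagen receptor chain, was higher in other CD4 cells at 51.1 against 21.5 CPM (1.25).

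The lymph node homing receptor gene Ccr7 was lower in Tc9 other CD4 cells, at -2.98, where naive-like cells were 19 of all CD4 cells in Tc9 and 409 in Tc1. S1pr1, the egress receptor that CD69 opposes, was at 153 against 116 CPM in other CD4 cells (0.40) and at 153 against 46.8 CPM in Foxp3 cells (1.71). In other CD4 cells 5.32% of all genes were higher and 16.5% lower. Of 11 residence genes 3 were higher and 2 lower there, with Nr4a1 at 1.51, Ahr at 1.22 and the chemokine Xcl1 at -1.60. Of 11 early response and dissociation genes 1 was higher and 4 lower in other CD4 cells, with Egr3 at 1.48 and the heat shock genes Hspa1a at -2.31 and Hspa1b at -1.96. In Foxp3 cells 4 of 11 were higher and 2 lower, with Egr3 at 2.44, Hspa1a at -2.62 and Hspa1b at -2.45. Of all genes there 15.8% were higher and 24.2% lower. The part of tissue handling in the Cd69 levels was not tested. Of 5 integrin ligand genes 1 was higher and 3 lower in other CD4 cells. Cdh1 (E-cadherin) was at 13.4 against 6.53 CPM. Icam2, which the rule for named genes did not pick and which was added after its value was seen, was at 19.2 against 30.6 CPM (-0.67). Fn1 (fibronectin) and Spp1 (osteopontin) were at 2.68 against 29.5 CPM and 0.87 against 22.0 CPM, beside the macrophage marker levels given above, whose part in these ligand levels was not tested. Cd44 was higher at 0.81.

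Over the 12 population levels (6 populations in 2 libraries), the genes most like each member among 4922 were ranked by Pearson's r of log2(CPM + 10), as a description of points that share libraries. They were Frmd5 (0.94), Tgfbr1 (0.93) and Zfp36l1 (0.92) for Itgae, St3gal6 (0.96), Apol7e (0.94) and Ubac2 (0.92) for Itga1, and Ubn1 (0.89), Rasgrp2 (0.87) and Usp15 (0.84) for Itga4. For Itgb1 they were Ehd3 (0.80), Slc20a1 (0.77) and Rpl36al (0.74), for Itgb7 Cep120 (0.97), Baz2a (0.96) and Ctps2 (0.95), for Cd69 Ablim1 (0.97), Skap1 (0.96) and Aak1 (0.95), and for Selplg Il10rb (0.90), Tmem234 (0.89) and Cript (0.89). Frmd5 itself ran from 1.56 to 381 CPM and was highest in Tc9 Foxp3 cells.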

How the data were processed

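Counts of UMIs per gene and barcode were deposited by the authors as filtered matrices, made with Cell Ranger 7.0.0 on mm10 (GRCm38) per the submitters' processing notes. TCR contigs were deposited in annotated form, and of these only productive ones were used, by their V and J segments and CDR3 bases (6639 on 4214 barcodes in Tc9, 8344 on 4597 in Tc1). Library totals were 50713493 UMIs in Tc9 and 106053410 in Tc1. All other steps were done here with Python 3.11.15, scanpy 1.11.5, scipy 1.17.1 and edgeR 4.0.16 (TMM factors only).

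Cells were clustered on 2000 variable genes without the 7 members and the TCR and immunoglobulin segments (30 components, 15 neighbours, Leiden resolution 1). A cluster in which Cd4 and Cd8 each reached 20% of cells was clustered again. T lineage needed Cd3 in 60% of cells and macrophage markers at or under 1000 CPM. An X-like name needed 3 markers in 10% of cells, 2-fold above the rest, 1 of them among the 10 leading genes. Clusters led by gamma-delta markers were left out, an NK name was withheld where 50% of cells had Cd4 or Cd8, a Treg name needed Foxp3 and a dendritic name a marker outside class II. These last rules and the second clustering were set after the clusters were seen. Shared-receptor cells were left out of the other populations. Scrublet called 1 barcode in Tc9, where it did not work, and 1616 in Tc1, and none was removed.

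CPM used summed UMIs over the population's total, with exact Poisson intervals, and ratios had exact conditional intervals, which treat UMIs of a cell as independent. Shares had Clopper-Pearson intervals. Background shares were taken over genes with at least 10 CPM in a group, and a gene at 0 entered at 3 counts. On simulated Poisson counts the ratio intervals held the truth for 95.3% of 7938 genes in other CD4 cells and 95.9% of 8098 genes in Foxp3 cells. The intervals assume such counts, so this checked only the calculation and not the spread between cells or clonotypes. Named genes were the 7 members, up to 3 per list with the largest ratio in other CD4 cells at 10 CPM or more, and the 3 most alike per member. Clusters, subsets and clonotypes were chosen after seeing values. The members and lists were chosen with earlier results of these data known. One gene that this rule names is not reported here.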

Additional observations from a re-analysis of the deposited data

Results flagged for a closer look

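The β1 gene differed between Tc9 and Tc1 in opposite directions by population. The log2 ratio of Itgb1, Tc9 over Tc1, was 1.07 in Foxp3, 1.03 in other CD4, 0.80 in NK-like and 0.85 in dendritic-like cells, but -1.32 in shared-receptor cells, and the difference between these ratios was not tested. The shared-receptor cells numbered 480 in Tc9 and 47 in Tc1, with a median of 7744.5 and 14981 UMIs. Cell cycle markers summed to 140 and 764 CPM in them and dendritic markers to 152 and 1151 CPM, and their part was not tested.

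Itga1 was detected outside the 6 populations, in endothelial-like barcodes, at 375 CPM in 29 cells of Tc9 and 225 CPM in 54 cells of Tc1. Cd69 was at 1515 CPM in 15 neutrophil-like barcodes of Tc9, against 106 CPM in 95 of Tc1, and 1 barcode held 19.2% of the Tc9 UMIs.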

How the results depend on the processing

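No paired analysis was possible because each group had 1 library of each kind and the labels give no replicate numbers, and for the same reason no replicate could be left out. Of the single-gene values under alternatives, 686 were counted as unchanged. For ratios this meant the same direction past the threshold, or within 1.5-fold in both settings, whatever the sign. For shares of cells it meant a move of less than a fixed number of points at 1000 UMIs. A further 30 ratios no longer passed the threshold, 16 passed it newly and 18 shares moved by more than that step. The other 6 turned direction, with the main value, the alternative or both past the threshold. The alternatives on receptor chains, naive-like, Treg-like and cluster subsets were chosen after seeing the data. With only CD8 cells that had another beta chain (22 in Tc9), Itga4 (1.08), Itgb1 (1.06) and Cd69 (-0.62) turned direction against all CD8 cells, while without cluster 1.0 Itgae stayed at 2.84. Without naive-like clusters Itgb1 turned to -0.32 in expanded CD8 cells of Tc1, and without Foxp3 cells and the Treg-like and naive-like clusters to -0.16 in expanded CD4 cells of Tc1. With equal weight per cell the median of the 7 in dendritic-like cells was 0.64, past the threshold, and Selplg turned to 0.64 there. The cause of these changes was not tested. TMM factors moved the median of all genes by 0.27 in other CD4, 0.18 in Foxp3, 0.17 in shared-receptor and -0.22 in dendritic-like cells, and the median ratio of genes by 0.14 in other CD4 and -0.16 in dendritic-like cells. Itgb1 stayed higher in Tc9 other CD4 cells in all 13 alternatives (0.73 to 1.29) and Itgae in Foxp3 cells in all 14 (1.26 to 1.95). In shared-receptor, NK-like and dendritic-like cells, small cell numbers limit what counts can show, and counting intervals do not cover differences between animals or pools.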
